A study of Mus musculus with 2 samples.

Results

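The genes examined here encode the Wnt ligands of the mouse, their Frizzled receptors and LRP co-receptors, and the proteins outside the cell that modulate them. They were chosen by name. A protein-coding gene was a member when its symbol began with Wnt, Fzd, Sfrp, Dkk or Rspo followed by a digit, or was Lrp5, Lrp6, Wif1, Porcn or Wls. The rule found 46 members among 43346 Ensembl genes, of which 21474 were protein-coding, and the rule itself uses no measured value. They comprised 19 Wnt genes, 10 Frizzled genes, 4 R-spondin genes, 4 secreted Frizzled-related protein (Sfrp) genes, 4 Dickkopf (Dkk) genes and the 5 genes given by name.

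Poly(A) RNA was sequenced from the small intestine of 1 C57BL/6J mouse, an adult female 10 weeks old. The labels give no treatment and no genetic change. They list 2 technical libraries, of which technical replicate 1 is called the first library and technical replicate 2, made in 2015 after the study the first belonged to, the second. Paired values below list the first library before the second (n = 2, both technical), so none describes variation between mice.

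Wnt proteins are secreted, lipid-modified ligands. Porcn attaches the lipid and Wls carries the modified protein to the cell surface, where it binds a Frizzled receptor together with Lrp5 or Lrp6 and keeps beta-catenin from being degraded. R-spondins raise the number of Frizzled receptors at the surface, whereas Sfrp, Dkk and Wif1 proteins act outside the cell, mostly as antagonists. In the small intestine this signalling maintains the dividing cells of the crypts, and ligands and R-spondins come from the epithelium and from the mesenchyme beneath it.

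The libraries held 28277875 and 24509862 expected counts, which are estimated reads per gene. Mitochondrial genes and their near-identical nuclear copies held 72.3% and 21.6% of all TPM, the abundance per length scaled to a fixed sum in each library. The TPM of every member was therefore compressed in the first library, and TPM ranks genes here only within a library. A difference between libraries is given as a log2 ratio of scaled counts, second over first, so a gene of equal TPM in both can have a negative log2 ratio. Enterocyte markers summed to 7204 and 20322 TPM, led by Fabp1 (1080 and 9783 TPM) and Fabp2 (3191 and 5248 TPM), so the labelled tissue's main cell type is present. Pancreatic acinar markers, led by Cela2a (136.8 and 3441 TPM) and Amy2a5 (1355 and 1821 TPM), were also present in both.

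In TPM as deposited, 11 of the 46 members reached 1 TPM in both libraries, another 8 only in the second and Dkk2 only in the first. The other 26 stayed under 1 TPM in both. These groups depend on the compression of the first library. After rescaling without mitochondrial genes and copies, 14 members reached 1 TPM in both, among them Dkk2 at 4.34 and 1.01 TPM. Among all protein-coding genes 8632, or 40.2%, reached 1 TPM in both. Summed over members, the level was 64.97 and 134.3 TPM, and 234.8 and 171.4 TPM after rescaling without mitochondrial genes and copies, so the direction of the sum depends on those genes. The order of the 46 levels in one library followed that in the other with a Spearman's rho of 0.861, which describes genes of the same tissue that share both libraries.

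**Figure D1:**
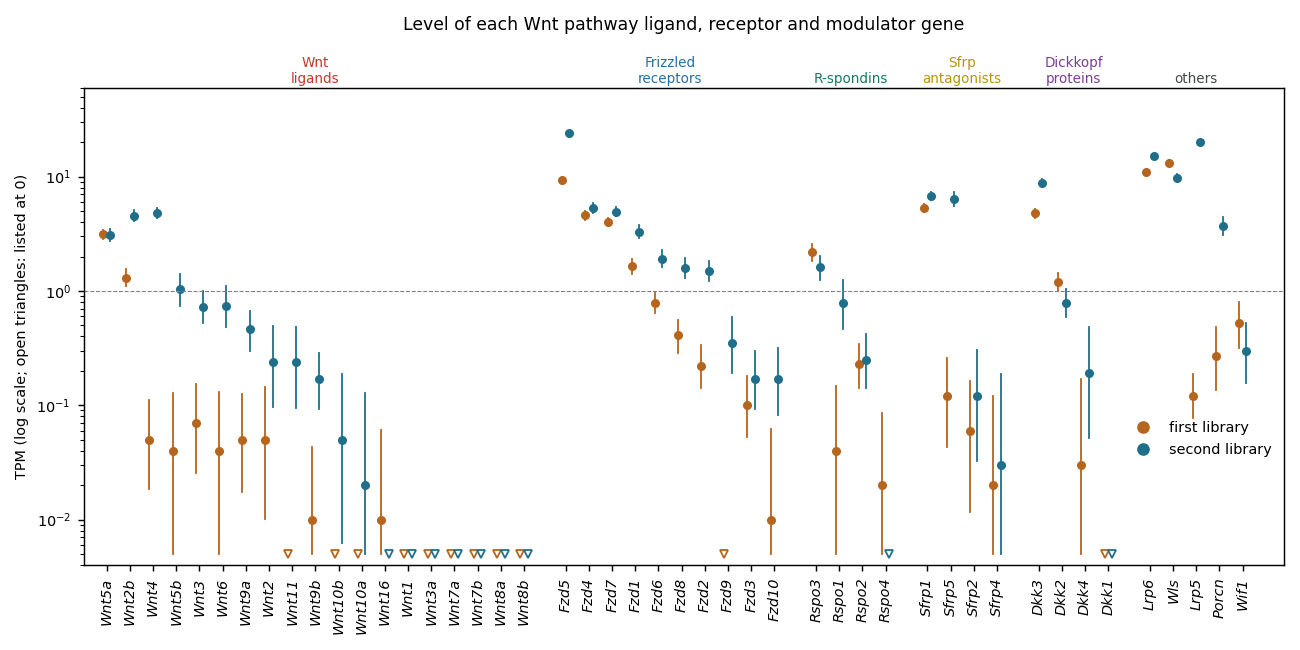
Level of each of the 46 genes in TPM (log axis) by class, with the first library in brown and the second in blue. Points are deposited TPM, bars are exact Poisson 95% intervals from the counts, open triangles mark genes listed at 0, and the dashed line is 1 TPM; Fzd5, Lrp6 and Wls are high in both libraries, while Lrp5, Wnt4 and Sfrp5 are high in the second only.

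Of the 27 members with 20 or more counts over both libraries, 10 were called higher in the second library, against 7 called higher in the first, by a two-sided exact binomial test with Benjamini-Hochberg adjustment over all genes, at an adjusted p under 0.05 and 2-fold or more. The shares called over all 15194 tested genes were 40.2% and 27.5%, against 37.0% and 25.9% of the tested members, so the members were called about as often as genes at large. This test compares a pair of libraries and not a pair of conditions, with counting as the sole source of error. The median log2 ratio of the tested members was -0.0039, beside 0.26 over all tested genes. Scaling by total nuclear counts in place of TMM would raise every log2 ratio by 0.20, and directions below hold under TMM scaling, since removal of the trend with GC content turned the sign of 12 tested members. In bulk tissue, fewer cells of a type and less RNA per cell cannot be told apart.

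Among the ligands, Wnt5a led in the first library, and Wnt4 and Wnt2b led in the second. Wnt5a, a ligand of the branch that acts without beta-catenin, lies on chromosome 14 at 28504750 to 28527448 (mm10) and stood at 3.13 and 3.07 TPM from 500 and 280 counts. It held 65.8% of the summed Wnt TPM in the first library and 19.0% in the second. Its log2 ratio was -1.47 ± 0.11 (SE of counting), higher in the first library (exact binomial test, adjusted p = 2.9e-44). Wnt4 lies on chromosome 4 between 137277489 and 137299726, and its level was 0.05 and 4.84 TPM from 6 and 366 counts. It held 1.05% and 29.9% of the Wnt TPM. Its log2 ratio was 5.18 ± 0.57, the largest among the Wnt genes tested (exact binomial test, adjusted p = 3.8e-69). Wnt2b, a mesenchymal ligand of the beta-catenin branch on chromosome 3 at 104945272 to 104961921, kept a steady share of 27.5% and 28.3%, at 1.31 and 4.57 TPM from 131 and 292 counts. Its log2 ratio of 0.52 ± 0.15 was under 2-fold. In the second library the intervals of Wnt4 and Wnt2b overlapped, so their order there is not resolved.

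The other Wnt genes were low. Wnt5b reached 0.04 and 1.04 TPM from 2 and 41 counts and was higher in the second library. It overlaps Fbxl14 on the opposite strand, which had 649 and 833 counts, and no source used here says whether reads were counted by strand, so its value is uncertain. Wnt3, the ligand made by Paneth cells, stood at 0.07 and 0.73 TPM from 6 and 40 counts. Wnt6 (2 and 25 counts) and Wnt9a (5 and 27 counts) were, like Wnt3, higher in the second library by the same test. Wnt2, Wnt9b, Wnt10a, Wnt10b, Wnt11 and Wnt16 had between 0 and 14 counts in a library and were not tested. Wnt11 had 0 and 7 counts and its interval of counting error includes no difference.

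Wnt1, Wnt3a, Wnt7a, Wnt7b, Wnt8a and Wnt8b had 0 counts in both libraries, as did Dkk1. For these 7 genes 3 counts would correspond to 0.0313 to 0.0963 TPM in the first library and 0.0491 to 0.150 TPM in the second, so lower levels were not detectable at this depth. Several Wnt genes lie next to each other. Wnt6 and Wnt10a are 6.2 kb apart on chromosome 1, Wnt10b and Wnt1 11.7 kb apart on chromosome 15, and chromosome 11 holds Wnt3a beside Wnt9a and Wnt9b beside Wnt3. In the second library Wnt6, Wnt9a and Wnt3 had the higher TPM of their pairs, while in the first the intervals overlapped within each pair and the order is not resolved.

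The order of the Frizzled receptors in one library followed that in the other with a Spearman's rho of 0.960 over the 10 genes. Fzd5, a receptor of the crypt epithelium on chromosome 1 (64730558 to 64737751), led in both libraries at 9.26 and 24.16 TPM from 1842 and 3040 counts. It held 43.9% and 55.7% of the Frizzled TPM. Its log2 ratio was 0.09 ± 0.04 (exact binomial test, adjusted p = 0.0394), far under 2-fold, and did not pass the test with DESeq2 size factors. Fzd4 followed with 4.62 and 5.31 TPM from 478 and 351 counts and was higher in the first library at a log2 ratio of -1.08 ± 0.10, which nuclear total counts brought under 2-fold (-0.88). Fzd7, a receptor used by intestinal stem cells, stood at 4.02 and 4.95 TPM from 517 and 406 counts, with a log2 ratio of -0.98 ± 0.10. The intervals of Fzd4 and Fzd7 overlapped in both libraries.

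Fzd1 had 1.64 and 3.30 TPM from 193 and 248 counts, and its log2 ratio of -0.27 did not pass the test (exact binomial test, adjusted p = 0.0574). Fzd6 had 0.79 and 1.92 TPM from 91 and 141 counts, and Fzd8 0.41 and 1.59 TPM from 38 and 95 counts. Neither was called. Fzd2, at 0.22 and 1.49 TPM from 23 and 98 counts, was the one Frizzled gene among the 8 tested that was called higher in the second library at 2-fold or more. Fzd3 and Fzd10 had at most 13 counts in a library; Fzd3 was not called and Fzd10 was not tested. Fzd9 had 0 and 14 counts and was not tested.

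The co-receptors Lrp5 and Lrp6 are close relatives that both pair with Frizzled proteins, and their order reversed between the libraries. Lrp6 lies on chromosome 6 between 134446476 and 134566965, and its level was 11.03 and 15.27 TPM from 2997 and 2537 counts. Lrp5 lies on chromosome 19 between 3584828 and 3686564, and its level was 0.12 and 20.03 TPM from 22 and 1832 counts. Lrp6 was thus 91.9 times the TPM of Lrp5 in the first library and 0.762 times in the second. The log2 ratio of Lrp5 was 5.71 ± 0.31, the largest of all tested members, and that of Lrp6 was -0.87 ± 0.04.

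The coding sequences of both co-receptors aligned with 66.5% identical columns, but G and C made up 59.0% of that of Lrp5 and 49.3% of that of Lrp6. The same comparison for Wnt4 and Wnt5a, the ligands at opposite ends of the tested Wnt genes, gave 61.8% and 55.9% at 57.6% identity. These pairs were chosen after their values were seen. A stretch of 150 coding bases of each is shown to make the difference in base composition visible, with G and C in capitals, read from the GENCODE M21 transcripts of mm10, sense strand, 5′ to 3′. The stretches of Lrp5 (coding bases 2347 to 2496) and Wnt4 (451 to 600) surround the middle of the coding sequence, and those of Lrp6 (2311 to 2460) and Wnt5a (532 to 681) begin at the base aligned to them.
Lrp5: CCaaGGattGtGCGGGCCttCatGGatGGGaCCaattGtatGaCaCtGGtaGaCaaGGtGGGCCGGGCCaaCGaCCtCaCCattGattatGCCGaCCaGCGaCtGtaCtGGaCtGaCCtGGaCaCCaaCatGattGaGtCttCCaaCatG
Lrp6: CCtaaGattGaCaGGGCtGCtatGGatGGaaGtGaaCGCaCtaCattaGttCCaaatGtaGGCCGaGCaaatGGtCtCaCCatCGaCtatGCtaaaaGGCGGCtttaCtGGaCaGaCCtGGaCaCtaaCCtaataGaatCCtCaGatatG
Wnt4: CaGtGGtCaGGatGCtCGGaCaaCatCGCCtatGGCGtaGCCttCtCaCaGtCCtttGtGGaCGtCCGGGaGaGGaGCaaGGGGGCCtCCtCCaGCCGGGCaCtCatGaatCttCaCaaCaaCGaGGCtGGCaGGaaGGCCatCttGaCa
Wnt5a: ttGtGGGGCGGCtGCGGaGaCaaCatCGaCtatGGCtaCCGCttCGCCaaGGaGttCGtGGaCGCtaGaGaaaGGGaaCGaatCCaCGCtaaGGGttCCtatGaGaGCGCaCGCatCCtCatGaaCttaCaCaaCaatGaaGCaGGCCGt
The stretches hold 53.3% G or C in Lrp5, 46% in Lrp6, 58.7% in Wnt4 and 54.7% in Wnt5a. The place of the stretch matters for the Wnt pair. Stretches around each gene's own middle, drawn first and replaced by the aligned ones after their values were seen, held 62.7% for Wnt5a, above the 58.7% of Wnt4, while the Lrp values were the same. One stretch of this length therefore does not stand for a whole coding sequence.

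R-spondins were led by Rspo3, a product of mesenchymal and lymphatic cells on chromosome 10 at 29452416 to 29535867. It stood at 2.18 and 1.61 TPM from 142 and 67 counts and was higher in the first library, with a log2 ratio of -1.71 ± 0.21. Rspo1 had 0.04 and 0.78 TPM from 2 and 18 counts and was higher in the second library. Rspo3 thus had 54.5 times the TPM of Rspo1 in the first library, on 2 Rspo1 counts, and 2.06 times in the second. In the second library 0.25 of the 0.78 TPM of Rspo1 was assigned to the non-coding Rspo1-202, on 1.25 counts. Rspo2 had 21 and 15 counts and was called higher in the first library (exact binomial test, adjusted p = 0.0289), a call lost with nuclear total counts (log2 ratio -0.90, adjusted p = 0.0716), while Rspo4 had 1 and 0 counts. Lymphatic endothelial markers, led by Ccl21a (0.14 and 27.3 TPM) and Lyve1 (4.77 and 5.18 TPM), summed to 7.15 and 38.6 TPM, and mesenchymal markers, led by Dcn (86.0 and 87.3 TPM) and Cd81 (19.6 and 152 TPM), to 138.5 and 290.8 TPM. Of 5 lymphatic markers, 2 were called for each library, with Ccl21a higher in the second and Lyve1 in the first. Of 8 mesenchymal markers, 4, with Cd81, were called for the second and 2, with Dcn, for the first. Over all tested genes 40.2% were called for the second and 27.5% for the first. The part of these markers in the R-spondin values was not tested.

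Among the antagonists, Sfrp1 and Dkk3 were the most abundant in both libraries. Sfrp1 stood at 5.34 and 6.75 TPM from 661 and 533 counts, with a log2 ratio of -0.94 ± 0.08. Sfrp5 lies on chromosome 19 between 42197971 and 42202252, and its level was 0.12 and 6.41 TPM from 6 and 208 counts, and its log2 ratio was 4.37 ± 0.57 (exact binomial test, adjusted p = 1.8e-36). Sfrp1 held 96.4% of the Sfrp TPM in the first library and 50.7% in the second, where its interval overlapped that of Sfrp5. Sfrp2 and Sfrp4 had at most 4 counts in a library. Dkk3, a divergent Dickkopf protein, stood at 4.78 and 8.80 TPM from 448 and 527 counts. Dkk2, which binds LRP co-receptors, stood at 1.2 and 0.79 TPM from 124 and 52 counts and was higher in the first library, with a log2 ratio of -1.88 ± 0.24. Dkk4 had 1 and 4 counts. Wif1, which binds Wnt proteins, had 0.52 and 0.30 TPM from 20 and 12 counts and was called higher in the first library (exact binomial test, adjusted p = 0.0119). All 20 counts in the first library were assigned to Wif1-202, annotated as a retained intron. The 12 in the second were all on the coding Wif1-201, so the call does not describe the coding transcript.

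The 2 genes of ligand production moved in opposite directions. Wls lies on chromosome 3 between 159839672 and 159938664, and its level was 13.18 and 9.70 TPM from 1215 and 571 counts, with a log2 ratio of -1.72 ± 0.07. Porcn lies on chromosome X between 8193848 and 8206525, and its level was 0.27 and 3.72 TPM from 11 and 111 counts, with a log2 ratio of 2.64 ± 0.45. Wls had 48.8 times the TPM of Porcn in the first library and 2.61 times in the second.

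The log2 ratio of the members moved with the GC content of their transcripts. GC content of a gene was the unweighted mean over its annotated transcripts, however abundant each was. The sequences were those of GENCODE M21, which for some members, such as Fzd8 and Fzd4, differ in length from the transcripts counted. Over the 27 tested members Pearson's r was 0.723 and Spearman's rho 0.799, and over 15127 tested nuclear genes they were 0.800 and 0.855. These correlations are across genes, which share both libraries and are not independent replicates. Bounds at 50% and 55% GC were chosen after the values were seen. Of 8 members under 50%, 6 were higher in the first library and 0 in the other, beside 3896 and 347 of 7219 tested genes. Between 50% and 55%, 1 of 7 members was called for each library, with a median log2 ratio of -0.87, beside 2413 of 4228 genes for the second and 197 for the first, with a median of 1.33. Members placed in that range by the mean over transcripts therefore lay lower than genes at large. Among them were Lrp6, whose value is that median, and Wnt5a, the 1 called for the first library. Their most abundant transcripts have 46.0% and 46.7% GC, so the placement depends on that mean. Of 12 members at 55% or more, 9 were higher in the second library but 0 in the other, beside 3340 and 33 of 3680 genes. The part of base composition in these differences was not tested.

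**Figure D2:**
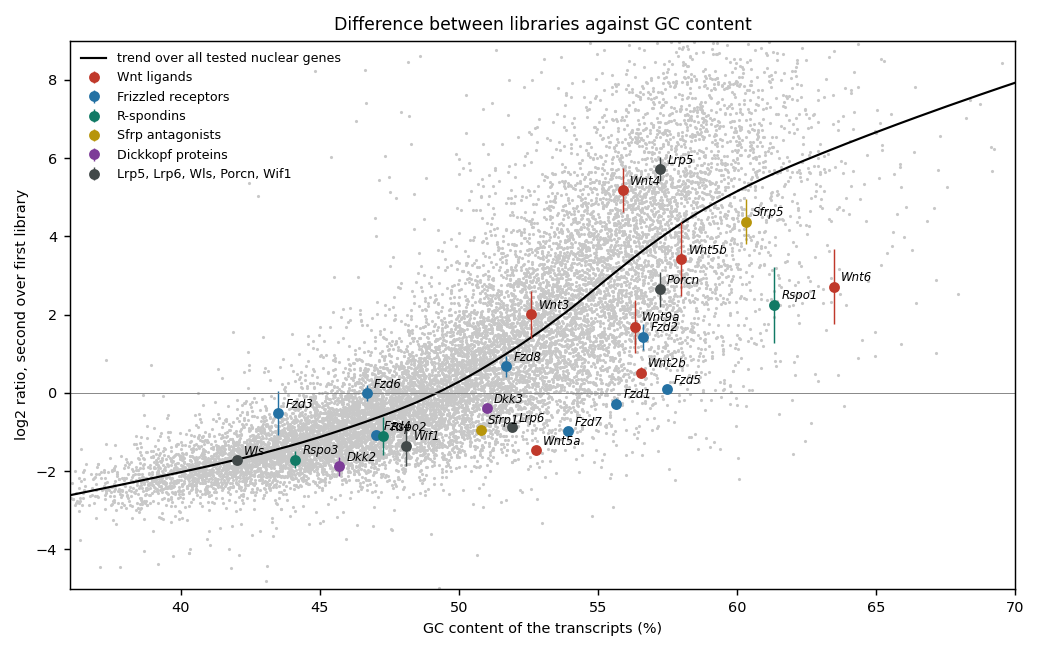
Log2 ratio of scaled counts, second over first library, against the unweighted mean GC content of each gene's transcripts in percent. Grey points are all tested nuclear genes, coloured points the 27 tested members with counting SE, and the line is the lowess trend; Lrp5 and Wnt4 lie above the line, and Fzd5, Wnt2b, Fzd1 and Fzd7 below it.

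When each gene was set against this trend, Wnt4 and Lrp5 were the 2 members higher in the second library, and 13 were higher in the first. The shares called over 15151 genes were 17.5% and 17.6%. The 13 were Wnt5a, Wnt2b, Wnt6, Wnt9a, Fzd5, Fzd7, Fzd1, Fzd2, Rspo1, Sfrp1, Dkk3, Lrp6 and Porcn. Of these, only Wnt5a was also among the 7 called for the first library without removal of the trend. Against the trend the median of the tested members was -0.996, beside -0.012 over all tested genes. By the mean GC over transcripts, Wls, at -0.017, lay on the trend, and Fzd5, at -3.99, was farthest below it. Wnt4 and Lrp5 stood at 1.95 and 1.75. Fzd5 was set at 57.5% GC, where the trend was 4.08, but Fzd5-201, its most abundant transcript, has 52.7%. At Wnt3, with 52.6%, the trend was 1.42. Lrp6 and Wnt5a were set at 51.9% and 52.8%, above the 46.0% and 46.7% of their most abundant transcripts. At Fzd6, with 46.7%, the trend was -0.73, beside log2 ratios of -0.87 for Lrp6 and -1.47 for Wnt5a. Lrp5 was set at 57.2%, where the trend was 3.96, but Lrp5-201, its leading transcript in the second library, has 58.6%. At Wnt5b and Wnt7b, with 58.0% and 59.4%, the trend was 4.33 and 4.94, beside a log2 ratio of 5.71 for Lrp5. The places of Fzd5, Lrp6 and Wnt5a, and how far Lrp5 lay above the trend, thus rest on the mean over transcripts.

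**Figure D3:**
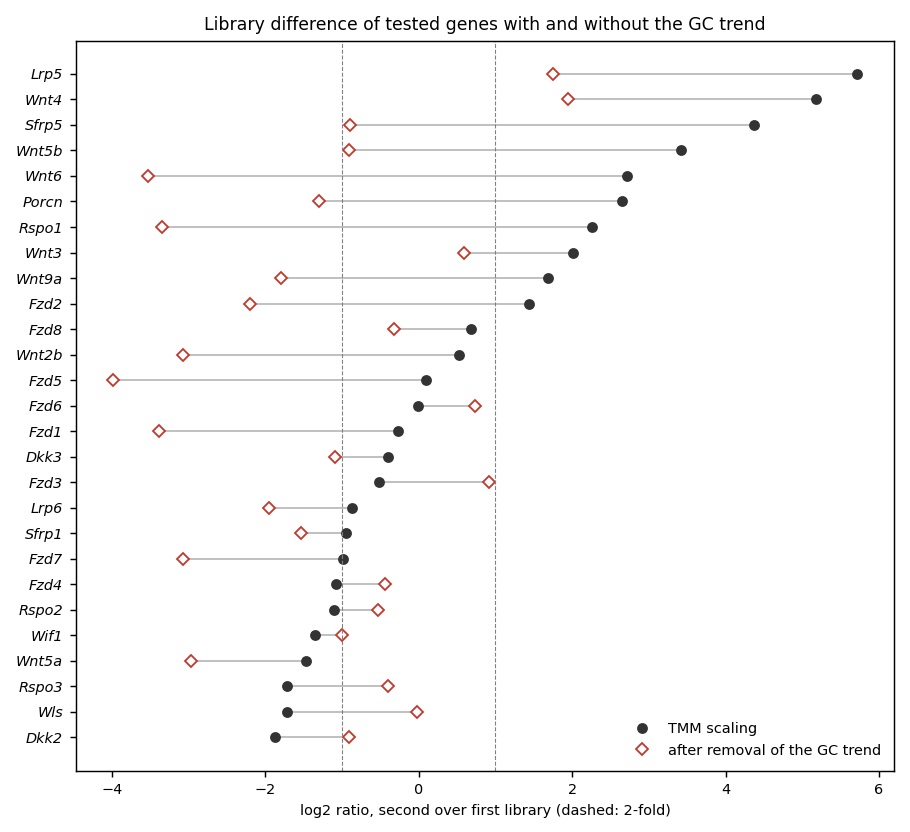
Log2 ratio, second over first library, of the 27 tested members with TMM scaling (filled circles) and after removal of the GC trend (open diamonds). Dashed lines mark 2-fold; Wnt4 and Lrp5 stay above 2-fold on both scales, while Wnt6, Rspo1 and Porcn change sides.

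Many members joined a GC-rich coding sequence to an AT-rich stretch after the stop codon, a comparison added after the values were seen. The median GC of tested members was 59.0% in the coding sequence and 44.3% after the stop, against 52.9% and 44.4% over 13080 tested protein-coding genes. Fzd5 had 62.8% in its coding sequence and 45.3% over 4288 bases after the stop. Lrp5 had 205 bases after the stop and Lrp6 4313. Across tested members the log2 ratio had a Pearson's r of 0.569 with coding GC and 0.541 with GC after the stop, and across all those genes 0.657 and 0.752.

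Of the 20 members at 1 TPM or more in either library, 13 had 1 annotated transcript. Among the other 7, the leading isoform was the same in both libraries for Wnt5a, Fzd5 and Lrp6 and differed for Wnt5b, Fzd6, Lrp5 and Porcn. Fzd5-201 held 100% and 98.64% of its gene's TPM, Lrp6-201 100% and 95.62%, and Wls had 1 transcript. Lrp5-201, the full-length coding isoform, held 0% and 89.38%. In the first library the Lrp5 reads were assigned to Lrp5-204 (56.08%) and Lrp5-203 (43.92%), both annotated as targets of nonsense-mediated decay, on 22 counts in all. Wnt5a, Wnt5b, Fzd6, Rspo1, Wif1 and Porcn fall outside the rule for naming isoforms and were named after their values were seen. Porcn had no reads on a protein-coding isoform in the first library, on 11 counts, and 45.54% on Porcn-202 in the second.

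**Figure D4:**
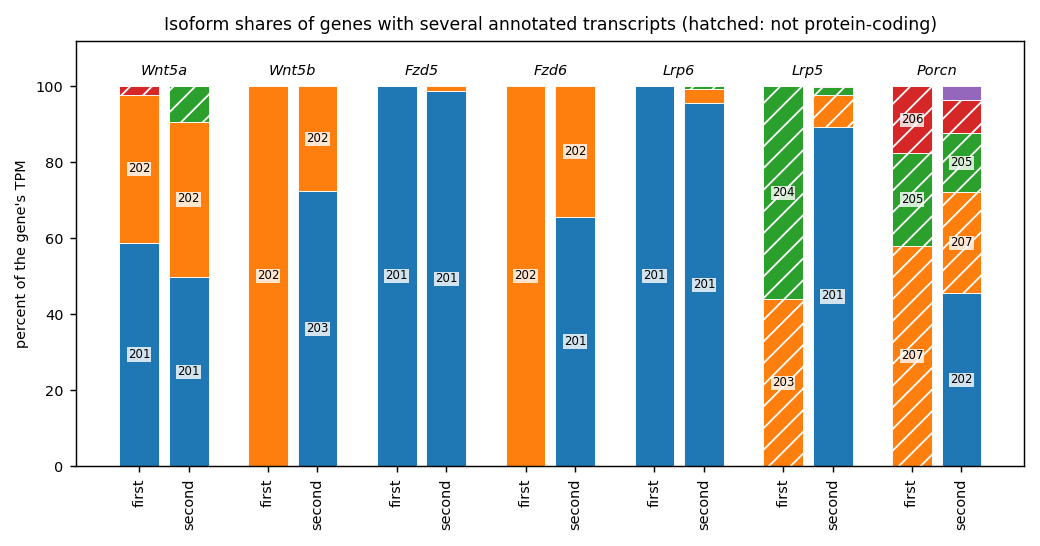
Deposited isoform shares, in percent of the gene's TPM, in each library for the 7 members with several transcripts among those at 1 TPM or more in either library. Numbers are transcript suffixes and hatched segments are transcripts not annotated as protein-coding; Lrp5 and Porcn are wholly hatched in the first library, on 22 and 11 counts.

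Downstream and around the members, 77 other pathway genes were measured in 6 lists, and 71 were tested. Of these 36, or 50.7%, were called for the second library and 17, or 23.9%, for the first, beside the 40.2% and 27.5% of all tested genes. Against the GC trend the counts were 8 and 29 of 71, beside 17.5% and 17.6% of all genes. Cer1, Sost and Ndp, all secreted, had 0 counts in both.

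Among 11 tested receptor partners, 6 were called for the second and 3 for the first. Lgr4, an R-spondin receptor, stood at 22.0 and 22.0 TPM, Ryk at 18.2 and 25.4 TPM, and Rnf43, which removes Frizzled from the surface, at 3.45 and 15.8 TPM. Among 9 other secreted or membrane modulators the counts were 4 and 2, led by Igfbp4 (2.88 and 28.8 TPM), Gpc4 (4.92 and 15.3 TPM) and Tpbg (1.22 and 1.46 TPM). Of 17 cytoplasmic genes, 10 were called for the second and 4 for the first. Ctnnb1, which encodes beta-catenin, stood at 134.4 and 295.9 TPM, Csnk1a1 at 160.8 and 131.9 TPM and Gsk3a at 1.74 and 83.5 TPM.

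Of 11 nuclear effectors, 6 were called for the second and 2 for the first, with Tle4 at 14.0 and 18.9 TPM, Tle1 at 7.61 and 19.0 TPM and Tle3 at 4.15 and 19.7 TPM. The planar polarity and calcium branch had 4 genes in each direction of 13, with Rac1 at 103.9 and 232.3 TPM, Rhoa at 114.4 and 163.9 TPM and Camk2d at 33.7 and 32.2 TPM. Of 16 crypt target genes, 9 were called for the second and 3 for the first, and against the GC trend 1 and 11, where 17.5% and 17.6% of all genes were called. Its most abundant genes were Rnf43, Axin2 (2.19 and 16.1 TPM) and Ccnd1 (4.53 and 13.0 TPM). Some genes stand in a pair of lists and were counted once in the total.

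**Figure D5:**
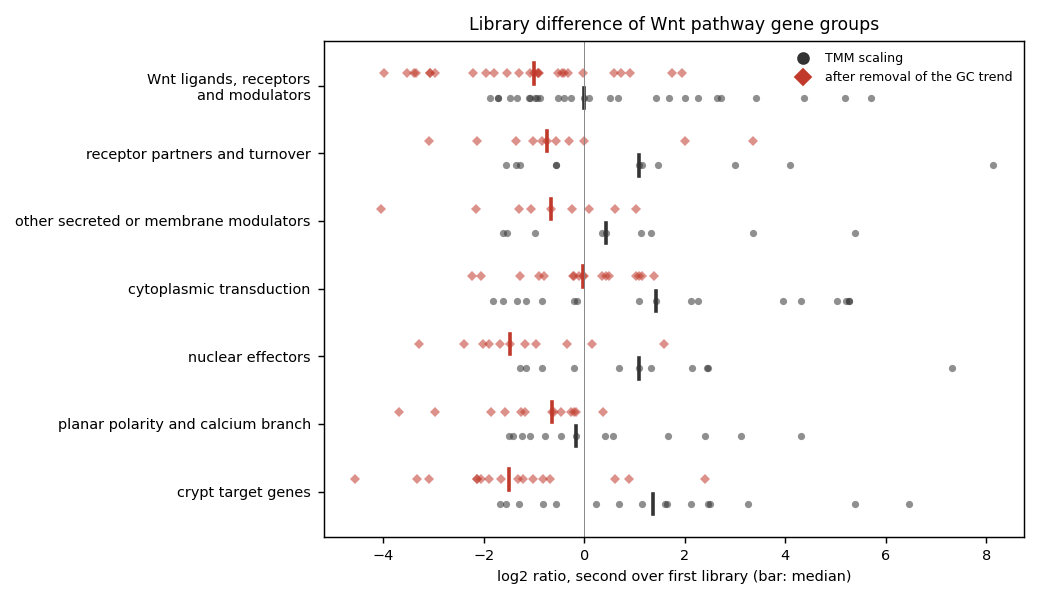
Log2 ratio, second over first library, of the tested members and of the tested genes in 6 pathway lists, with TMM scaling (grey circles) and after removal of the GC trend (red diamonds). Each point is a gene and bars are medians; the median of each group is lower after the trend is removed.

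Sums of the other marker lists are given in TPM as deposited, and rescaling without mitochondrial genes turned the order of several. Paneth cell markers, led by Defa24 (475 and 11074 TPM) and Lyz1 (795 and 2181 TPM), summed to 1434 and 14612 TPM, and stem cell markers, led by Olfm4 (156 and 204 TPM) and Smoc2 (4.53 and 28.9 TPM), to 165.6 and 240.1 TPM. Goblet cell markers, led by Zg16 (98.8 and 5584 TPM) and Tff3 (2.89 and 2774 TPM), summed to 261 and 11380 TPM. Smooth muscle markers, led by Acta2 (10.1 and 227 TPM) and Tagln (4.09 and 124 TPM), summed to 25.7 and 602 TPM. Neuron and glia markers, among them Elavl4 (1.32 and 0.99 TPM), stayed at 3.55 and 6.48 TPM, and mesothelial markers, led by Upk1b (2.23 and 2.97 TPM) and Upk3b (0.06 and 1.54 TPM), at 2.76 and 6.04 TPM. Adipocyte markers, led by Fabp4 (30.6 and 105 TPM) and Cidec (0.55 and 102.6 TPM), summed to 41.8 and 236 TPM. Rescaled sums were 598 and 306 TPM for stem cell, 12.8 and 8.27 TPM for neuron and glia, 9.97 and 7.70 TPM for mesothelial and 500.5 and 370.9 TPM for mesenchymal markers, each lower in the second library. No marker was at 0 counts in both libraries, and the part of cell makeup in the members' differences was not tested.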

How the data were processed

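The members and gene lists were chosen with earlier results of these data known. Expected counts and TPM per gene and transcript were deposited by the authors in tables of the RSEM format, with FPKM used for 1 alternative and isoform shares deposited as percent of a gene's TPM. Per the deposited notes the assembly is mm10 and the annotation M4. No source used here names the aligner or the quantifier's version. Symbols, coordinates and transcript sequences came from GENCODE M21 on the same assembly, matched by identifier (42462 of 43346 genes). All GC values, also those of coding sequences and after the stop, therefore describe M21 sequences, while counts are on M4 transcripts. These differed in length for some members: Fzd8-201 had 5974 bases in M21 and 3346 as counted, and Fzd4-201 6720 and 3685. Fzd3-202 had 12734 and 4157 bases, and Rspo3-201 3085 and 2394. Entries that were no Ensembl gene (26345, all at 0 counts) were left out.

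The quasi-likelihood test of edgeR needs replicates and could not be fitted with 1 library a side. In its place each gene had an exact binomial test, two-sided, on expected counts rounded to whole numbers, for genes with 20 or more counts over both libraries, with TMM factors (edgeR 4.0.16) setting the expected split and Benjamini-Hochberg adjustment over all tested genes. It was run on simulated Poisson counts, which hold only the counting error that the test assumes. That run therefore does not bear on other variation between these libraries. Log2 ratios used 0.5 prior counts. TPM intervals are exact Poisson 95% intervals on counts and, like the floors of 3 counts, cover only counting error: the tables name no molecular identifiers, and reads may repeat a molecule. Depth set a floor of 0.106 and 0.122 CPM. The GC trend was a lowess fit with a span of 0.3, which left out 48 mitochondrial genes and copies. It used the unweighted mean GC over a gene's annotated transcripts, and no trend was fitted on the most abundant transcripts. DESeq2 1.42.0 gave alternative size factors.

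All members are named, with TPM and counts for those at 1 TPM or more in either library. The 3 most abundant genes of each pathway list, the 2 of each marker list and any gene at 0 in both libraries are named. One marker gene that this rule takes is not reported here. Isoforms are named for the 3 most abundant members and for members at 5 TPM or more whose leading isoform differs. One listed gene, Tiki1, matched no symbol. Protein sequences, planned for the Wnt genes, were not used here. A search of promoters for a TCF motif was run and is not reported, because these data do not bear on promoters. The coding stretches and their placement were chosen after values were seen.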

Additional observations from a re-analysis of the deposited data

How the results depend on the processing

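Removal of the GC trend took the members higher in the second library from 10 to 2 and those higher in the first from 7 to 13, and the pathway genes from 36 to 8 and from 17 to 29. Of the 7 members, only Wnt5a stayed called for the first library. Fzd4 (-0.44), Rspo3 (-0.40), Rspo2 (-0.53), Dkk2 (-0.91), Wls (-0.017) and Wif1 (-0.996) were no longer called. Removal of the trend turned the sign of Wnt2b (-3.08), Wnt5b (-0.91), Wnt6 (-3.53), Wnt9a (-1.79), Fzd5 (-3.99), Fzd6 (0.73), Fzd8 (-0.32), Fzd2 (-2.21), Fzd3 (0.92), Rspo1 (-3.35), Sfrp5 (-0.90) and Porcn (-1.30), values on the log2 scale. Of these, Wnt5b, Fzd8, Fzd3 and Sfrp5 did not pass the test after removal, and Fzd6 and Fzd3 had not passed it before. The cause was not tested. Nuclear total counts turned Fzd6 (0.20) and moved the median log2 ratio from -0.0039 to 0.20, by construction of the scaling. It also left 5 of 7 members and 14 of 17 pathway genes higher in the first library, with Fzd4 and Rspo2 no longer called. DESeq2 size factors turned none of the 27 tested members. They took the members higher in the first library from 7 to 8, with Fzd7 (-1.03) then past 2-fold, and the pathway genes from 17 to 18. With them Fzd5 no longer passed the test. Without a filter on low counts the median was 0.47, and with 100 counts over both libraries 5 members, of 19 then tested, were higher in the second. With no fold minimum 11 members and 28 pathway genes were higher in the first library, and at 4-fold 0 of each. At 4-fold 8 of 10 members and 24 of 36 pathway genes were still counted as higher in the second. A stricter fold can only lower a count. Shares over all tested genes were not taken at these fold and count settings, so these counts cannot set the listed genes apart from genes at large. Members at 1 TPM or more in both libraries numbered 11, and 20 at 10 expected counts in place of 1 TPM. With TPM rescaled without mitochondrial genes and copies they numbered 14, and single libraries gave 12 to 19. Among members at 1 TPM or more in either library, 7 had several transcripts. Of these 7, 5 had an isoform holding 50% or more of the gene by the mean of both libraries, and 5 to 7 in single libraries. No paired analysis was possible because the 2 libraries form 1 group. Members of few counts, such as Rspo1, Wnt6 and Wnt5b with 2 in the first library, have wide intervals at this depth.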
